A study of Mus musculus with 13 samples.

Results

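The cytochrome P450 genes of families 1 to 3 encode most of the enzymes with which the liver oxidises drugs, pollutants and steroids. Members were all protein-coding genes of the mouse genome build mm10 (RefSeq, GRCm38.p6) whose symbol is Cyp1, Cyp2 or Cyp3 followed by 1 letter and a number. Symbols that end in a letter, such as Cyp3a41a, were thereby left out. The rule gave 57 of 21883 protein-coding genes, in 16 subfamilies, of which Cyp2c (15 genes), Cyp2d (8), Cyp2j (7) and Cyp3a (7) were the largest. A binding peak was assigned to a member when that gene was the nearest protein-coding gene to the peak centre, within 100 kb of its body. In 7 peak lists this selected 881 of 217044 peaks, which merged by overlap of at least 1 bp into 265 of 79141 sites. The farthest member peak lay 65.1 kb from its gene, Cyp2d40, and none fell just inside or outside the 100 kb limit. All but 4 genes (Cyp2b23, Cyp2j9, Cyp2j12 and Cyp2j13) had a peak in at least 1 list.

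The series maps the glucocorticoid receptor (GR) and the corepressor NCOR1 on chromatin of male mouse liver by chromatin immunoprecipitation and sequencing. Control mice are those labelled GFP. Mice labelled CRE are the NCOR1/2 double knockout (dKO), per the series' design text. Both genotypes received vehicle (saline) or 1 mg/kg dexamethasone, a synthetic glucocorticoid, by intraperitoneal injection at zeitgeber time (ZT) 8, and livers were taken 2 h later at ZT 10. Each of the 4 GR lists (control or dKO, vehicle or dexamethasone) stands for 2 libraries. For NCOR1, control liver is represented by 1 library under vehicle and 2 under dexamethasone, and dKO liver by 1 under vehicle. A single input library served as background for all lists. Age, strain, and the vector and promoter behind the GFP and CRE labels are not given in the sources used here. The tissue is liver and not sorted cells, so each list mixes hepatocytes with other cell types.

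P450s of these families are haem enzymes of the endoplasmic reticulum that take electrons from cytochrome P450 reductase. Many are switched on by ligand-activated transcription factors: AHR acts on Cyp1 genes, CAR on Cyp2b10 and PXR on Cyp3a11. In hepatocytes GR is known to act on several of them, both at DNA sites of its own and through the genes for PXR and CAR. NCOR1 is a corepressor that nuclear receptors recruit together with a histone deacetylase.

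The quantity given throughout is the authors' normalized tag count, the number of tags under a 200 bp peak scaled to 10 M sequenced tags (M, 1e6). The 7 lists held 17282 to 40853 peaks from 17.5 to 36.9 M tags. Replicates were pooled before peaks were called, which leaves every value without a spread over animals, and no difference was tested. The 95% intervals of tag count ratios cover counting error only. Those of shares and medians are computed over peaks as if each were independent, but neighbouring peaks of a gene cluster are not replicates. Where a list holds no peak at a site, the caller found none with the tags available, which is not a measure of zero binding. Of 6 hepatocyte marker genes, 5 had GR peaks in the control vehicle list (all but Apoa1). So had 3 of 5 Kupffer cell and leukocyte markers (not Clec4f and Cd68) and 4 of 5 endothelial and stellate markers (not Lrat). The share over all protein-coding genes was 49.6%.

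Promoters come first, because peaks were frequent there. A promoter window from 250 bases before to 50 after the transcription start was available from RefSeq for 50 of the 57 genes. In control liver a GR peak overlapped this window at 21 genes (42.0%) under vehicle and at 20 (40.0%) under dexamethasone, against 12.9% and 12.7% of 17491 protein-coding genes. In dKO liver the number was 12 genes (24.0%) under either treatment, against 9.95% and 7.91%. NCOR1 peaks overlapped 26 member windows (52.0%) under vehicle and 22 (44.0%) under dexamethasone in control liver, against 26.0% and 22.5% of all genes. In dKO liver 2 member windows (4.0%), those of Cyp2j6 and Cyp3a59, still carried a peak called with the NCOR1 antibody, against 18.4% of all genes. Cyp2c promoters made up much of the GR count: in control vehicle liver GR was called at the windows of Cyp2c37, Cyp2c38, Cyp2c39, Cyp2c40, Cyp2c50, Cyp2c67, Cyp2c68, Cyp2c69 and Cyp2c70. The Cyp2c38 window peak counts under Cyp2c39 in the site lists, because the RefSeq body of Cyp2c39 extends over it.

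**Figure D1:**
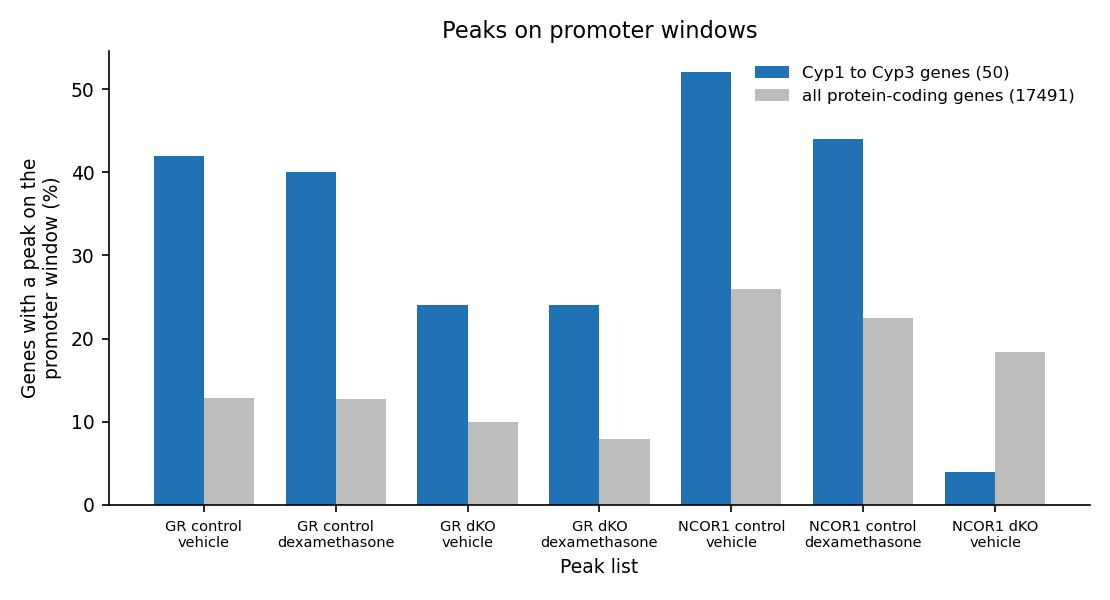
Share of genes (y axis, percent) whose promoter window, from 250 bases before to 50 after the start, overlapped a peak of each list (x axis); blue bars are the 50 P450 genes with a window and grey bars all 17491 protein-coding genes with one. The blue bar is the taller in the 6 lists other than NCOR1 in dKO liver, where it is 4.0% against 18.4%.

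The 250 bases upstream of the start are printed for 8 promoters that the binding results turn on: those with GR and NCOR1 at Cyp2c39, Cyp2c70, Cyp2c40, Cyp2c69, Cyp2a22 and Cyp3a25, and those of Cyp2c29 and Cyp3a11, where NCOR1 but no GR peak was called. They are RefSeq sequences of GRCm38.p6, read in the direction of the gene: chr19:39510572-39510821 for Cyp2c39 (plus strand), chr19:40187287-40187536 for Cyp2c70 (minus strand), chr19:39812815-39813064 for Cyp2c40 (minus strand), chr19:39886770-39887019 for Cyp2c69 (minus strand), chr19:39286835-39287084 for Cyp2c29 (plus strand), chr7:26939387-26939636 for Cyp2a22 (minus strand), chr5:145879855-145880104 for Cyp3a11 (minus strand) and chr5:146009619-146009868 for Cyp3a25 (minus strand). Capitals mark AGGTCA, the single repeat bound by many nuclear receptors, AGAACA, 1 arm of the GR site, and CAAAGT, the core of sites of the hepatocyte factor HNF4A, each on either strand.
Cyp2c39: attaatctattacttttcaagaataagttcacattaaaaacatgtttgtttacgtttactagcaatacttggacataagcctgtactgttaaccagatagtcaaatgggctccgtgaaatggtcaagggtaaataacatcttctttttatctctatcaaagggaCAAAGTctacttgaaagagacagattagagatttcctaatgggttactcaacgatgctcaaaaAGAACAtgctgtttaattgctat
Cyp2c70: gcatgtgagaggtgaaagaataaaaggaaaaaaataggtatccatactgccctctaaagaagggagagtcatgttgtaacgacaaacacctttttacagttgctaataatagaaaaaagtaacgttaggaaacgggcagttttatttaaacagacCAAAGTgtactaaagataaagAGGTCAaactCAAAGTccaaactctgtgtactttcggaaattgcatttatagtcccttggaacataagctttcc
Cyp2c40: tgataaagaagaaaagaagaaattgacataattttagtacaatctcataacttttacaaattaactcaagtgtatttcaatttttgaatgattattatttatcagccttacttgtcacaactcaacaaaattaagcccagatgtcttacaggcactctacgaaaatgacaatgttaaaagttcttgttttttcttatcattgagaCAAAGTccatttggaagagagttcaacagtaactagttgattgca
Cyp2c69: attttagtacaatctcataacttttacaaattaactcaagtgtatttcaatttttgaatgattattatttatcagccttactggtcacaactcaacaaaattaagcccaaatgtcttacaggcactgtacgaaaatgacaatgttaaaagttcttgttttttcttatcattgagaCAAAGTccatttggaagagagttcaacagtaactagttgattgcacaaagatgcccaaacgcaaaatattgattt
Cyp2c29: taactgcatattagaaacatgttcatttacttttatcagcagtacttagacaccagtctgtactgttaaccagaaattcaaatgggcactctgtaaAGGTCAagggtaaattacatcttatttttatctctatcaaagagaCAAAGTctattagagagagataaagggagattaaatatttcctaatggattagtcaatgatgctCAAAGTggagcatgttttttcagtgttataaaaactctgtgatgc
Cyp2a22: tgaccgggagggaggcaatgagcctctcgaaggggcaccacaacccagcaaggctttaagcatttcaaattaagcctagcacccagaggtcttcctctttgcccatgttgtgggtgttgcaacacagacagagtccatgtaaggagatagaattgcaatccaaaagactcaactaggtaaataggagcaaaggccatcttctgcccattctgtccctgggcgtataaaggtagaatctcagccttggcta
Cyp3a11: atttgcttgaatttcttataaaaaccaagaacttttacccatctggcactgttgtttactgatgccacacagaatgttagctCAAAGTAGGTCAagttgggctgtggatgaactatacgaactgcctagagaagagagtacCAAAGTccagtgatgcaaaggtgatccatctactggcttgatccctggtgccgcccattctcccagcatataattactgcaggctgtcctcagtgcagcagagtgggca
Cyp3a25: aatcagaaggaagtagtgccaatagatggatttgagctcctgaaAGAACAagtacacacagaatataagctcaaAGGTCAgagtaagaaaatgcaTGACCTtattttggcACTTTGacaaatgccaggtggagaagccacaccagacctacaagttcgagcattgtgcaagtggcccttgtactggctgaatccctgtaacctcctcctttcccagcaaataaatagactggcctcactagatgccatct
Cyp3a11 holds CAAAGT joined directly to AGGTCA and a second CAAAGT nearer the start. Cyp3a25 holds 2 AGGTCA repeats in opposite directions, 1 CAAAGT and 1 AGAACA. Cyp2a22 holds none of the 3 words. The Cyp2c40 and Cyp2c69 sequences as printed are 98.6% identical over 220 aligned bases when shifted by 30 bases.

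Across the 53 member windows of 300 bases (some genes have more than 1), CAAAGT on either strand occurred in 28 (52.8%), against 13.4% of 21262 windows of all genes. AGGTCA occurred in 19 (35.8% against 14.7%) and AGAACA in 18 (34.0% against 16.2%). The GR palindrome, AGAACA followed after 3 bases by TGTTCT, was found in no member window and in 0.00941% of all. GCGTG, the core bound by AHR, occurred in 10 member windows (18.9% against 38.5%), among them those of Cyp1a1 and Cyp1b1, with 2 matches at Cyp2b10. Member windows had a median GC content of 47.7%, against 56.3% for all, and the part of base composition in these shares was not tested. A match is a run of letters and not a bound site. The windows of Cyp3a25 nearly coincide, as do those of Cyp2j13, and each was counted. Near-identical windows of paralogs were also each counted, so the matches are not independent.

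Some members are so alike that short reads may not separate them. Of 171 pairs of windows within subfamilies, 8 were at least 90% identical, involving 11 genes. They include Cyp2b9 with Cyp2b13 (99.3%), Cyp2a4 with Cyp2a5 (98.3%), Cyp3a25 with Cyp3a59 (96.3%) and Cyp3a16 with Cyp3a44 (93.9%). How reads with several matches were handled is not given in the sources used here, so values at these genes are uncertain.

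Members held 130 GR peaks in control vehicle liver (0.433% of that list) and 165 under dexamethasone (0.404%). In dKO liver they held 103 (0.441%) and 111 (0.391%). By the same rule GR peaks were assigned to 53 of the 57 genes (93.0%) in at least 1 list, against 60.2% of all protein-coding genes, and to 44 (77.2%) in all 4, against 38.6%. Most were intergenic: 26.9% of the control vehicle member peaks lay inside the gene, against 55.6% of all peaks of that list. The Cyp2c genes held 31 and 38 control GR peaks (vehicle and dexamethasone), Cyp2d 23 and 30, Cyp3a 22 and 26 and Cyp2a 19 and 27. The 5 Cyp2b genes held only 8 and 13, but these include the strongest member peak of the dexamethasone lists. In control liver 180 and 175 member NCOR1 peaks were called (vehicle and dexamethasone), and in dKO vehicle liver 17. Of the 265 sites, 196 had GR in some list, 214 had NCOR1 in control liver and 150 had both.

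**Figure D2:**
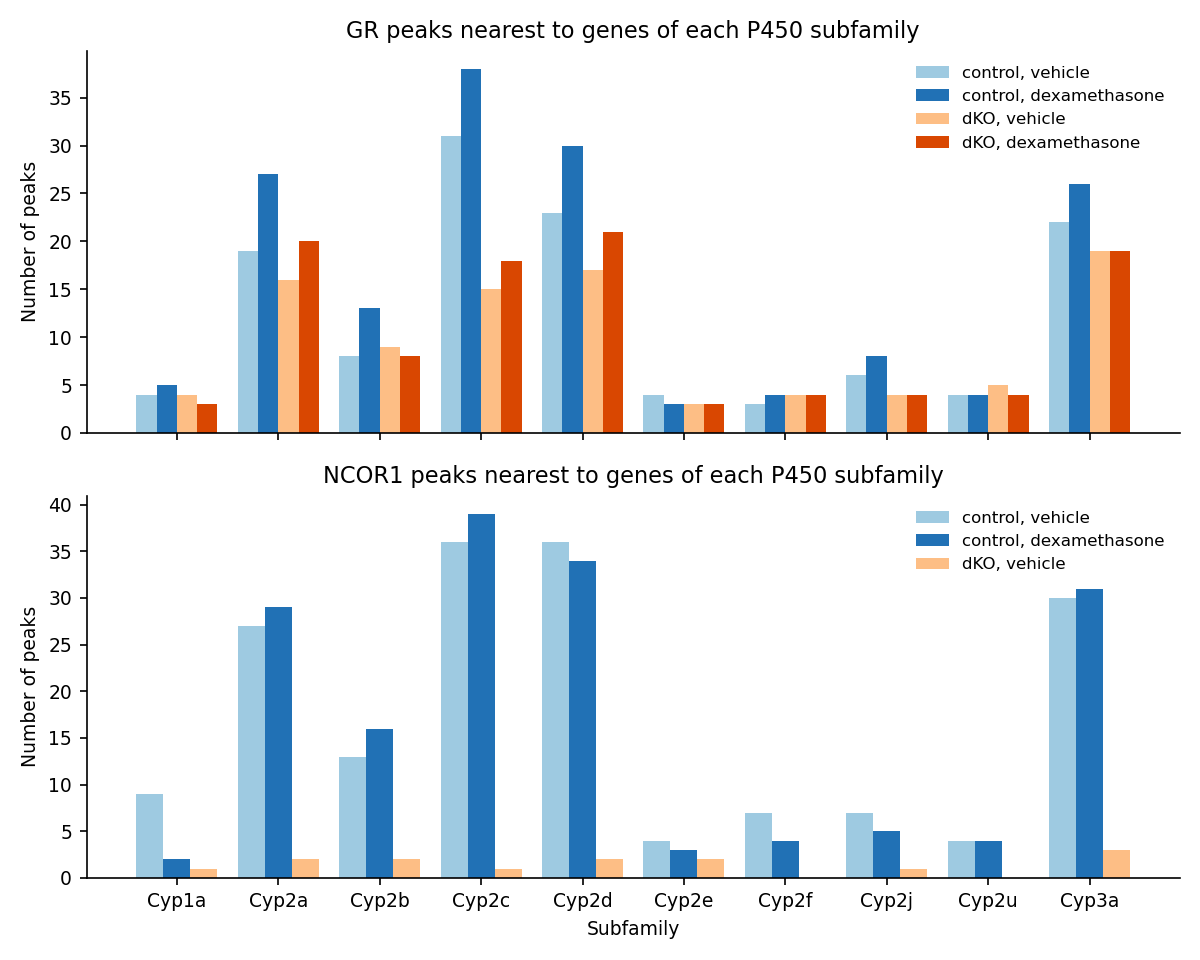
Number of peaks (y axis) assigned to 10 P450 subfamilies (x axis) in the GR lists (upper panel, 4 lists) and the NCOR1 lists (lower panel, 3 lists); each bar is 1 pooled list. Cyp2c, Cyp2d, Cyp3a and Cyp2a hold most peaks, and the dKO NCOR1 bars do not exceed 3 in any subfamily.

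The first comparison asks where GR sat at these genes after dexamethasone in control liver. Under dexamethasone, 52 of the 165 peaks (31.5%, interval 24.5 to 39.2) had no vehicle counterpart, against 39.8% of all peaks of that list. Conversely 17 of the 130 vehicle peaks (13.1%, 7.81 to 20.1) were not called under dexamethasone, against 18.1% of all. At the 113 peaks found in both lists the tag count was higher under dexamethasone at 89 (78.8%, against 53.3% of all), with a median log2 ratio of 0.36 (0.23 to 0.49), against 0.07 over all 24576 shared peaks. At least 2-fold higher were 11 of the 113, and the share over all shared peaks was 11.5%. None was at least 2-fold lower, against 2.43% of all. The share of large differences was thus near the background, while the middle of the distribution was higher.

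The 7 Cyp3a members, of the main drug and steroid oxidases induced through PXR, had the highest median of the larger subfamilies. Their 21 shared peaks had a median log2 ratio of 0.85 (0.36 to 0.99), with 20 higher and 5 of them at least 2-fold. A site 21.0 kb upstream of Cyp3a11 (chromosome 5, 145900721 to 145900921) had 14.6 tags per 10 M under vehicle and 109.4 under dexamethasone in control liver, and 15.4 and 65.5 in dKO liver. Both dexamethasone lists are high there and both vehicle lists low. The control ratio of 7.49 (counting interval 5.41 to 10.7) ranked 43 among the 24576 shared peaks. Cyp3a11 had 2 further sites with at least 2-fold higher counts under dexamethasone in control liver, 32.1 kb upstream (13.3 against 37.3) and 1.54 kb upstream (15.8 against 35.6). A site 5.12 kb downstream of Cyp3a16, a gene best known from newborn liver, had 12.4 against 30.0. Inside Cyp3a16 a dexamethasone peak of 48.0 stood 237 bp from a vehicle peak of 16.4, so that overlap counts each as found under 1 treatment only. Cyp3a25, by contrast, differed little at its strongest GR site, 11.7 kb upstream, with 34.9 and 35.5 in control liver and 31.9 and 34.6 in dKO liver. Cyp3a13, which lies apart from the cluster, had 19.5 and 27.8 at its promoter in control liver.

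Cyp2b10, the phenobarbital-inducible target of CAR, carried the strongest member site under dexamethasone. It lies 13.2 kb upstream (chromosome 7, 25884352 to 25884552) and had 73.2 and 159.0 tags per 10 M in control liver (vehicle, then dexamethasone) and 41.3 and 111.9 in dKO liver. The same order of 4 values is kept below. The control dexamethasone value ranked 181 of 40853 peaks. The count was higher under dexamethasone in both genotypes, by a ratio of 2.17 (1.84 to 2.57) in control and 2.71 (2.2 to 3.33) in dKO liver. A second site inside Cyp2b10, 3.46 kb from the start (chromosome 7, 25901018 to 25901218), was called under dexamethasone only, with 63.3 in control and 29.9 in dKO liver. Another, 4.29 kb upstream, had 16.6 and 39.5 in control liver, 13.0 in dKO liver under vehicle and no peak there under dexamethasone. Cyp2b9, a female-predominant paralog, had 1 control vehicle peak of 11.3, which was 20.1 under dexamethasone. The strongest Cyp2b19 site, 10.7 kb downstream, went the other way, with 51.1 and 35.6.

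**Figure D3:**
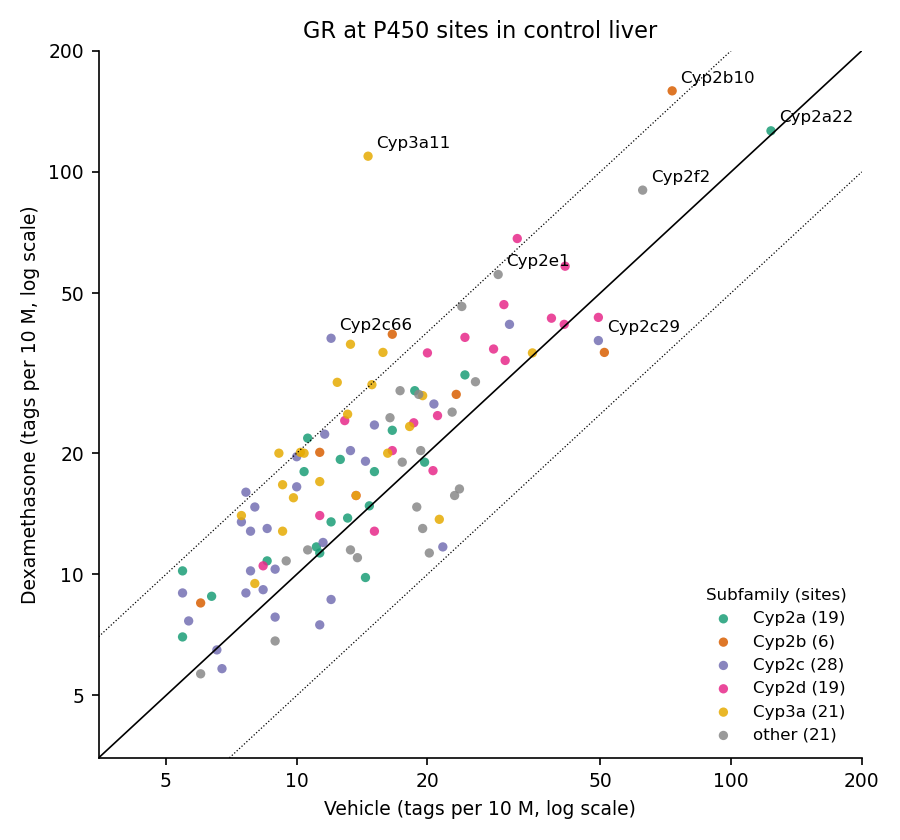
Normalized GR tag count under vehicle (x axis) and dexamethasone (y axis) in control liver, in tags per 10 M on log scales, for the 114 merged sites with a peak in both lists, coloured by subfamily; the solid line marks equality and the dotted lines a 2-fold difference. Most points lie above the solid line, and the Cyp3a11 site at 14.6 and 109.4 stands farthest from it.

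Among the Cyp2a genes, which oxidise coumarin, nicotine and steroids, all 19 vehicle peaks were also called under dexamethasone. The strongest GR site of all members in both vehicle lists lay 42.3 kb upstream of Cyp2a22 (chromosome 7, 26981565 to 26981765), with 123.6, 126.5, 75.9 and 72.4 in that order. Here the 2 treatments differed by less than the counting error in either genotype (ratios 1.02, interval 0.881 to 1.19, and 0.954, interval 0.793 to 1.15). The Cyp2a22 promoter had 24.4 and 31.3 in control and 11.2 and 12.2 in dKO liver. The Cyp2a12 promoter had 15.1 and 18.0, then 8.35 and 11.1.

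Cyp2c genes, which make epoxides of arachidonic acid and oxidise drugs and steroids, had many weak peaks, with a median count of 8.92 under vehicle and 12.2 under dexamethasone in control liver. The median log2 ratio of their 27 shared peaks was 0.41 (0.06 to 0.71), with 20 higher. The largest difference was 26.1 kb downstream of Cyp2c66, with 12.0 under vehicle and 38.6 under dexamethasone. The Cyp2c39 promoter printed above had 30.9, 41.8, 25.4 and 30.7, and that of Cyp2c70, the enzyme of muricholic acid synthesis, had 20.7, 26.5, 13.8 and 27.3. An intragenic site of Cyp2c29 had 49.5, 38.1, 50.9 and 31.7, lower under dexamethasone and alike between genotypes, with no NCOR1 peak in any list. Next to Cyp2c23, 0.564 kb from the gene, the count was 21.7 under vehicle and 11.7 under dexamethasone, the largest difference in that direction (log2 ratio -0.89).

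In the Cyp2d cluster, paralogs carried peaks at like distances from their starts. On the upstream side, GR was called 2128 bp outside the body of Cyp2d9, a male-predominant steroid hydroxylase, 2118 bp outside Cyp2d11, 2032 bp outside Cyp2d40 and 1697 bp outside Cyp2d26. The Cyp2d9 site (chromosome 15, 82450149 to 82450349) had 41.5, 58.3, 12.4 and 21.8, and the Cyp2d11 site 41.3, 41.8, 25.4 and 31.8. The Cyp2d40 site had 24.4 and 38.8 in control liver, no peak in dKO vehicle and 18.5 in dKO dexamethasone. The Cyp2d26 site had 30.2, 34.0, 17.7 and 27.9. All 4 sites were thus lower in dKO than in control liver under both treatments, or not called there. Cyp2d22, a drug oxidase, had 2 intragenic sites, with 32.2, 68.3, 25.7 and 44.5 at the one and 49.5, 43.5, 25.5 and 34.5 at the other. A site 16.4 kb outside Cyp2d10 had 30.0 and 46.8 in control liver, and 1 at 12.1 kb from Cyp2d40 had 38.6 and 43.3.

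Cyp2e1, which oxidises ethanol and paracetamol, had its strongest GR site 14.8 kb upstream, with 29.1, 55.6, 10.3 and 19.3, and 17.5, 19.0, 9.63 and 13.0 at its promoter. Cyp2f2, which oxidises naphthalene, had an intragenic site with 62.6, 90.1, 27.0 and 36.5. At these sites of both genes the order of the 4 lists was the same, with control dexamethasone highest and dKO vehicle lowest. It did not hold for all Cyp2f2 peaks: under vehicle, 2 of 3 shared between genotypes were higher in dKO liver. Cyp2j5, an epoxygenase, had an intragenic site with 24.0, 46.3, 15.6 and 21.2. At Cyp2u1, a fatty acid hydroxylase, 1 site had 19.1, 28.0, 7.22 and 12.4, and an intragenic one without NCOR1 had 20.2, 11.3, 19.3 and 11.8. Cyp2r1, the vitamin D hydroxylase of liver, had an intragenic site called under vehicle only, with 18.0 in control and 19.6 in dKO liver. The strongest site of Cyp2g1 had 17.3, 28.6, 8.51 and 22.1. Cyp2s1 had 18.9, 14.7, 17.2 and 11.3 at its promoter. Cyp2w1 reached 13.3 in control vehicle liver, and Cyp2t4 had 8.92, 6.83, 11.1 and 5.95.

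The 2 AHR-induced Cyp1a genes had 4 GR peaks under vehicle and 5 under dexamethasone in control liver. Their median count was 11.7 in both lists, against 13.3 (vehicle) and 12.0 (dexamethasone) over all peaks. In control liver Cyp1a1 had 1 peak under vehicle and 4 under dexamethasone, none above 13.7, and Cyp1a2 had 3 and 1. The strongest Cyp1a2 site, 8.49 kb downstream, had 23.1 under vehicle, 15.7 under dexamethasone and 9.15 in dKO vehicle liver, and it was not called in dKO dexamethasone liver. Cyp1b1, expressed mostly outside hepatocytes, had a single GR peak of 5.01 in dKO dexamethasone liver.

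**Figure D4:**
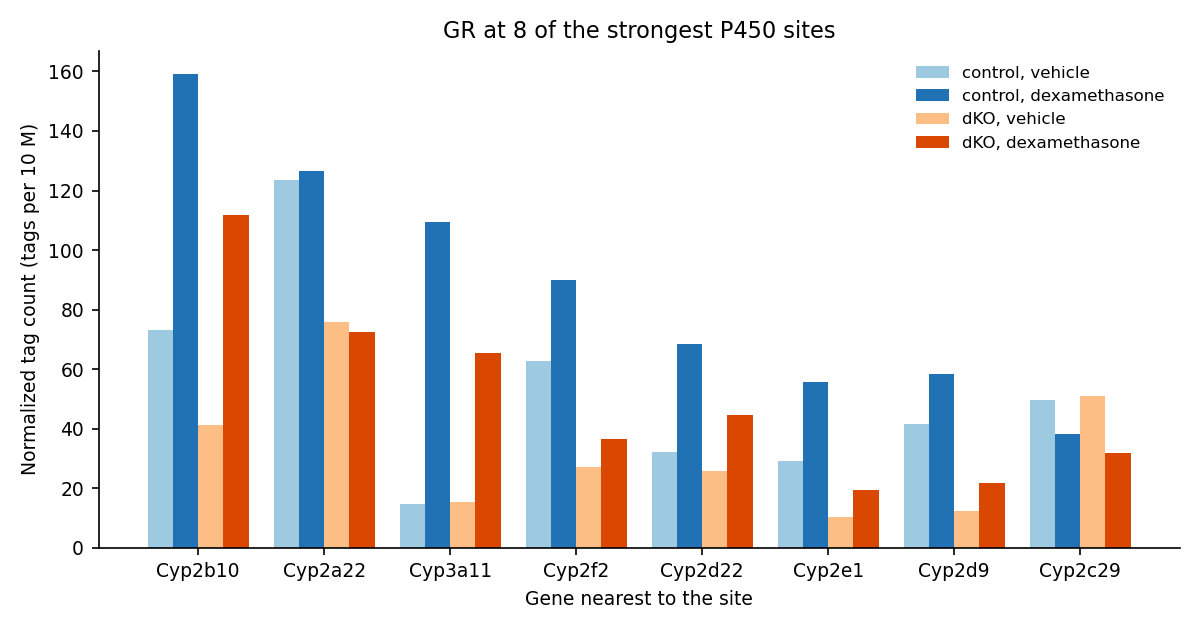
GR normalized tag count (y axis, tags per 10 M) in each of the 4 pooled GR lists at a strong site of 8 genes (x axis); a bar is 1 list and has no error bar because replicates were pooled. Cyp3a11 is near 15 in both vehicle lists and 109.4 and 65.5 under dexamethasone, whereas Cyp2a22 is alike between treatments.

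The second comparison repeated dexamethasone against vehicle in dKO liver. A vehicle peak was lacking at 35 of 111 dexamethasone peaks (31.5%, 23.0 to 41.0, against 35.4% of all). A dexamethasone peak was lacking at 27 of 103 vehicle peaks (26.2%, 18.0 to 35.8, against 21.5%). The 76 shared peaks had a median log2 ratio of 0.32 (0.23 to 0.44), while all 18330 shared peaks had -0.11, a difference of 0.43. The count was higher under dexamethasone at 60 of the 76 (78.9%, against 45.9% of all). At least 2-fold higher were 4 (7.61% of all), namely 2 Cyp3a11 sites, the Cyp2b10 site and Cyp2g1, and 0 were at least 2-fold lower (8.63% of all). The Cyp3a11 site 21.0 kb upstream led with a ratio of 4.25 (3.09 to 5.94), followed by that 1.54 kb upstream with 10.3 against 29.9. The Cyp3a median was 0.30 over 15 peaks, and the Cyp2d median was 0.49, with 14 of 14 higher. Whether the response at any gene differed between the genotypes was not tested. Apart from the input, the 2 comparisons have no libraries in common.

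The next comparison set dKO against control GR under vehicle. Among all 19488 shared peaks the median log2 ratio was -0.19, and the authors' estimate of immunoprecipitation efficiency was 3.4% in the dKO list and 5.0% in the control list. The 87 member peaks had a median of -0.47 (-0.70 to -0.27), which is -0.28 after the shift of all peaks is removed, and 74 were lower in dKO (85.1%, against 68.2% of all). The part of the efficiencies in these values was not tested. This comparison and the next share their lists with the 2 before. At least 2-fold lower were 15 of 87, against 7.44% of all, and 0 were at least 2-fold higher, against 0.133%. Called in control but not in dKO liver were 43 of 130 peaks (33.1%, 25.1 to 41.9, against 35.1% of all), and in dKO but not in control liver 16 of 103 (15.5%, 9.15 to 24.0, against 16.6%). For Cyp2c the share of control peaks without a dKO peak was 16 of 31 (51.6%, 33.1 to 69.8). Cyp2c control peaks were weak, with a median count of 8.92 against 13.3 over the list. The part of peak strength in this share was not tested. The Cyp2d9 site at 2128 bp had the lowest ratio, 0.299 (0.204 to 0.438), followed by Cyp2e1 14.8 kb upstream with 0.354 (0.227 to 0.538). All 14 shared Cyp2d peaks were lower, with a median of -0.79. The 18 Cyp3a peaks had a median of -0.26, and the Cyp3a11 site 21.0 kb upstream did not differ beyond counting error (ratio 1.05, 0.681 to 1.65). The highest ratio was at an intragenic site of Cyp3a44, with 10.4 in control and 14.8 in dKO liver. Peaks called in control but not dKO liver were led by Cyp2d40 (24.4), Cyp2b19 (23.3), Cyp2d10 (21.1), Cyp2d26 (20.6) and Cyp2d9 (16.4). The Cyp2b19 peak had a dKO peak of 14.3 at 241 bp.

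The fourth comparison set dKO against control GR under dexamethasone. The median over all 24720 shared peaks was -0.42, with efficiencies of 4.11% (dKO) and 7.23% (control). The 98 member peaks had a median of -0.48 (-0.63 to -0.37), only -0.05 beyond all peaks, and 85 were lower (86.7%, against 83.2% of all). At least 2-fold lower were 19 of 98, against 12.1% of all, and 1 was at least 2-fold higher, against 0.324%. That site lies inside Cyp2a4, whose window is 98.3% identical to that of Cyp2a5, and had 6.99 in control and 18.2 in dKO liver, while the like-placed Cyp2a5 site had 19.3 in control and no dKO peak. Called in control liver only were 67 of 165 (40.6%, 33.0 to 48.5, against 39.5% of all), and in dKO liver only 13 of 111 (11.7%, 6.39 to 19.2, against 12.9%). In the Cyp2c cluster 23 of 38 (60.5%, 43.4 to 76.0) were called in control liver only. The median count of the 38 was 12.2, against 12.0 over the control list. The strongest such peaks were at Cyp2b10 (39.5), Cyp2c66 (38.6, with a dKO peak at 311 bp), Cyp3a13 (23.3) and Cyp3a59 (23.1). All 18 Cyp3a peaks were lower, with a median of -0.59, and a site 5.12 kb downstream of Cyp3a16 had the lowest ratio, 0.272 (0.169 to 0.425). The Cyp3a25 site 11.7 kb upstream did not differ beyond counting error (0.975, 0.735 to 1.27).

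The fifth comparison asks how NCOR1 at these genes differed after dexamethasone in control liver. The vehicle list is 1 library of 17.8 M tags and the dexamethasone list 2 libraries of 36.9 M together. Over all 26532 shared peaks the median log2 ratio was -0.31. The 141 shared member peaks had -0.37 (-0.48 to -0.19), -0.06 beyond all peaks, with 101 lower (71.6%, against 71.1% of all). At least 2-fold lower were 23 of 141, against 12.2% of all, and at least 2-fold higher were 3, against 1.52%. Called under dexamethasone only were 34 of 175 (19.4%, 13.8 to 26.1, against 29.6% of all), and called under vehicle only were 39 of 180 (21.7%, 15.9 to 28.4, against 32.8%). Library number and depth differ between these lists, and their part was not tested.

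The subfamily medians differed in size, without a test. Cyp2d accounted for 11 of the 23 lower sites and had a median of -0.74 (-1.15 to -0.42) over 28 peaks. The Cyp2d26 promoter had 81.6 under vehicle and 28.3 under dexamethasone, a site 22035 bp from Cyp2d34 had 74.3 and 24.7, and the Cyp2d9 site at 2128 bp had 92.3 and 53.0. The stronger site inside Cyp2d22 had 63.6 and 24.2. The medians were -0.14 for Cyp2c (-0.4 to 0.13), -0.18 for Cyp2b (-1.25 to 0.76), -0.22 for Cyp2a (-0.6 to -0.02) and -0.25 for Cyp3a (-0.54 to 0.27). All lay above the -0.31 of all peaks, but each interval holds that value. Cyp2b rests on 10 shared peaks, of which 4 were at least 2-fold lower, against 12.2% of all. Of the 3 sites at least 2-fold higher, 2 were Cyp3a. NCOR1 at the Cyp3a11 promoter printed above was 11.3 under vehicle and 39.3 under dexamethasone (ratio 3.48, 2.18 to 5.88), and a site 8.15 kb downstream of Cyp3a16 had 20.5 and 68.7 (3.35, 2.39 to 4.96). These ratios ranked 27 and 33 among the 26532 shared peaks, and the remaining site was at Cyp2c40 (5.91 and 12.3). At the Cyp3a11 site 21.0 kb upstream NCOR1 was 35.7 and 24.5 (ratio 0.686, 0.493 to 0.965), an interval that holds the median ratio of all shared peaks, 0.804. The strongest NCOR1 site of all members under dexamethasone was 5.12 kb downstream of Cyp3a16, with 91.4 and 127.3. Cyp3a44 had 45.3 and 75.9 inside the gene, and Cyp2b13, a female-predominant gene, had 62.2 and 77.2. Cyp2b10 had 68.9 and 73.8 at 4.29 kb upstream. The Cyp3a25 promoter had 97.1 and 70.4, and the site 11.7 kb upstream of Cyp3a25, the strongest under vehicle, had 104.1 and 54.7.

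**Figure D5:**
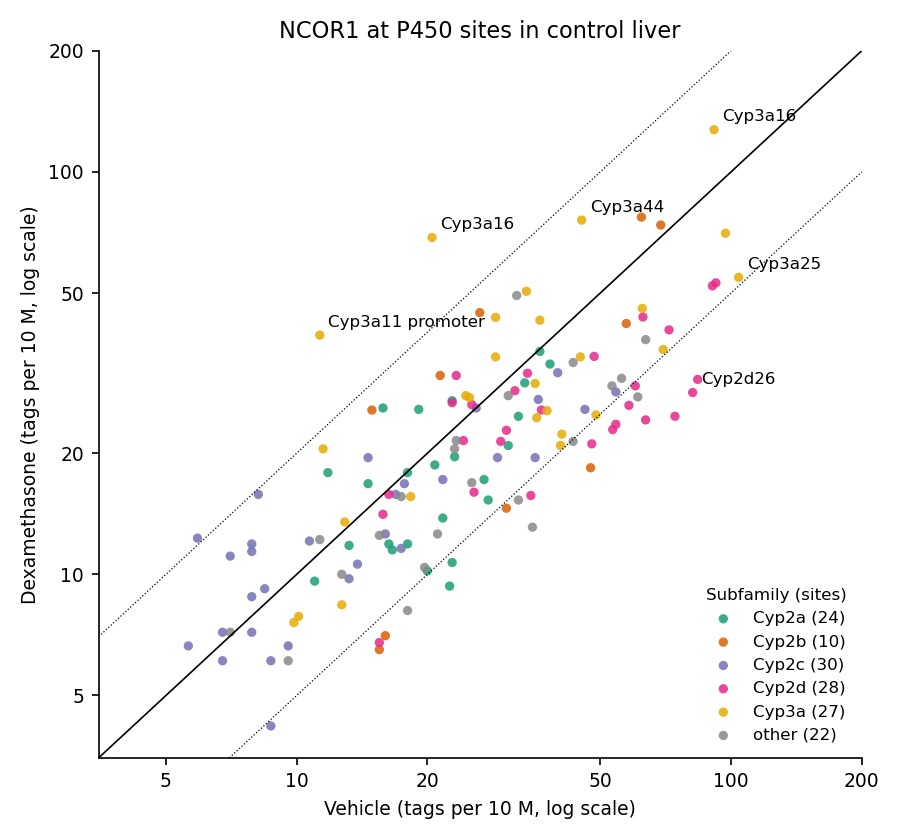
Normalized NCOR1 tag count under vehicle (x axis) and dexamethasone (y axis) in control liver, in tags per 10 M on log scales, for the 141 merged sites with a peak in both lists, coloured by subfamily; lines as in the GR plot. Cyp2d points lie mostly below the solid line, and the Cyp3a11 promoter (11.3, 39.3) and a Cyp3a16 site (20.5, 68.7) lie above the upper dotted line.

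The Cyp1a genes had 9 NCOR1 peaks under vehicle and 2 under dexamethasone. The Cyp1a2 promoter had 32.4 and 15.3, and a site between the 2 genes with 27.6 under vehicle was not called under dexamethasone. The Cyp2e1 promoter had the strongest NCOR1 peak called under vehicle only (50.1). At Cyp2j5 the promoter had 56.0 and 30.7, and at Cyp2u1 a site 7.07 kb from the gene had 61.0 and 27.6. Cyp2f2 had 43.3 and 33.6, Cyp2g1 63.6 and 38.3, Cyp2c23 54.3 and 28.4, Cyp2a12 38.3 and 33.3 and Cyp2w1 34.9 and 13.1 at their strongest vehicle sites. Cyp2r1 had 19.7 and 10.4. Cyp1b1 had no vehicle peak and 1 of 14.8 under dexamethasone.

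The sixth comparison set dKO against control NCOR1 under vehicle, with 1 library each. Immunoprecipitation efficiencies were 2.07% (dKO) and 8.52% (control), and their part in the following values was not tested. In dKO vehicle liver members held 17 NCOR1 peaks (0.0984% of that list, 0.0573 to 0.157), against 180 (0.456%) in control. No dKO peak was called at 169 of the control peaks (93.9%, 89.3 to 96.9, against 79.5% of all), and 6 of the 17 dKO peaks (35.3%, 14.2 to 61.7) had no control peak, against 53.1%. The highest dKO count was 18.6, inside Cyp2d22, followed by 18.0 at 13.3 kb upstream of Cyp2e1, and neither had a control peak. The 11 shared peaks had a median log2 ratio of -1.52, against -0.39 over all 8097 shared peaks. Of the 11, 10 were lower (90.9%, against 65.2% of all). The 5 strongest control sites, 2 at Cyp3a25 and 1 each at Cyp2d9, Cyp3a16 and Cyp2d26, had 90.6 to 104.1 and no dKO peak. Hepatocyte markers held 44 control and 3 dKO NCOR1 peaks, endothelial and stellate markers 22 and 17, and Kupffer cell and leukocyte markers 2 and 1. Most of the endothelial and stellate peaks were at Pecam1 (7 and 8) and Stab2 (13 and 6). The whole lists held 39458 and 17282 peaks. At the Cyp3a11 site 21.0 kb upstream NCOR1 was 35.7 in control and 6.87 in dKO liver, and at the Cyp3a59 promoter 62.5 and 10.9.

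The last comparisons ask how often GR and NCOR1 peaks coincided in control liver. Of 130 vehicle GR peaks 104 (80.0%, 72.1 to 86.5) overlapped an NCOR1 peak, against 54.3% of all, and of 165 dexamethasone GR peaks 124 (75.2%, 67.8 to 81.5), against 48.9%. Under vehicle the count was 22 of 23 in Cyp2d, 20 of 22 in Cyp3a, 4 of 4 at Cyp2e1 and 3 of 6 in Cyp2j. When vehicle peaks were divided into 5 strength classes of the whole list, the member share was above that of all peaks in each, from 63.2% against 57.0% in the weakest to 83.3% against 52.9% in the strongest. Under dexamethasone it was below in the weakest class only (35.3% against 38.4%). None of the 5 dexamethasone GR peaks of Cyp1a coincided with NCOR1. No test of these differences was made, since peaks of a gene cluster are not independent.

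GR values differed between the peaks with and without NCOR1. The 73 vehicle GR peaks with NCOR1 that were shared with dKO liver had a median dKO over control log2 ratio of -0.58, and 67 were lower. The 14 without NCOR1 had 0.00, with 7 lower and 7 higher. Over all peaks the medians were -0.48 and -0.03. For dexamethasone over vehicle in control liver the member medians were 0.36 (93 peaks with NCOR1) and 0.22 (20 without), against 0.32 and -0.36 over all peaks. The larger share with NCOR1 among members thus stands beside their higher median under dexamethasone, and its part in that median was not tested. The 7 strongest of those 14 had, in control and dKO liver under vehicle, 49.5 and 50.9 (Cyp2c29), 30.2 and 17.7 (Cyp2d26), 23.7 and 23.1 (Cyp2j11), 21.3 and 23.6 (Cyp3a57), 20.2 and 19.3 (Cyp2u1), 19.7 and 11.6 (Cyp2a5) and 19.5 and 17.2 (Cyp2j8). They were named after their values were seen. At Cyp2d26 and Cyp2a5, where the dKO count was lower, the gap to the nearest NCOR1 peak was 1 bp (NCOR1 90.6) and 155 bp (NCOR1 15.2). It was 2372 bp at Cyp2u1, 5868 bp at Cyp2j11 and 85396 bp at Cyp2j8, where the dKO count was also lower, by less. At Cyp3a57 and Cyp2c29, where the dKO count was higher, the gap was 17657 and 31014 bp. The part of this gap in the GR values was not tested.

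Regulators of these genes and enzymes that serve them were counted from fixed lists. Of 12 regulator genes 11 had GR peaks in control vehicle liver and 10 under dexamethasone, with 55 and 65 peaks, where 49.6% and 54.8% of all protein-coding genes had one. Ahrr, the AHR repressor, had none in any list. The following values are those of 1 overlapping site per gene, the one with the highest GR count in any list. At Nr1i2, the gene for PXR, it lies inside the gene and had 141.6, 146.4, 85.9 and 100.3 in the order kept above. Inside Ahr it had 25.7, 134.7, 22.3 and 83.5, higher under dexamethasone in both genotypes. Inside Nr1i3, the gene for CAR, it had 11.6 and 24.0 in control liver, no peak in dKO vehicle and 10.7 in dKO dexamethasone. At Rxra, the partner of both receptors, it had 184.6, 186.5, 71.3 and 111.4. Shared regulator peaks had a median log2 ratio of 0.34 for dexamethasone in control liver, with 36 of 44 higher. Over all shared peaks it was 0.07, with 53.3% higher. For dKO under vehicle the regulator median was -0.60, with 35 of 39 lower, against -0.19 and 68.2% lower over all. Of 7 redox and haem genes all had control GR peaks. Por, the reductase, had 54.2, 82.9, 30.3 and 37.0, and Alas1, the first enzyme of haem synthesis, had 45.1, 66.3, 28.4 and 35.1. The closest comparison is with the 42 other P450 genes, all those with a symbol of Cyp and a number that are not members. They include genes of the members' own families whose symbol ends in a letter, such as Cyp3a41a. They had a median of 0.56 over 69 shared peaks for dexamethasone in control liver and of -0.42 over 42 for dKO under vehicle. NCOR1 coincided with 64.1% (52.4 to 74.7) of their vehicle GR peaks, against 80.0% of those of the members, and the difference was not tested.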

How the data were processed

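Of 13 libraries, 12 were chromatin immunoprecipitations and 1 was input. The submitters' processing notes name Trim Galore 0.6.4, BWA 0.7.17, HOMER 4.11, bedtools 2.29.2 and mm10. Peaks of 200 bp were called by the authors with HOMER on pooled replicates against the input, at 4-fold over input and over the local 10 kb, per the file headers. The normalized tag count is a signal the authors scaled to 10 M tags, per the file headers. Fold over input and fold over local are ratios the authors computed, per the file headers. GR libraries were not size selected and NCOR1 and input libraries were, per the labels. GR and NCOR1 counts, and lists of unequal depth, are therefore not on 1 scale in full.

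Nearest genes came from RefSeq (GRCm38.p6), and a peak centre inside a gene has distance 0. The peaks equally near 2 genes (1 in each of 2 lists) lay inside both Cyp2c38 and Cyp2c39. Both genes are members, and these peaks went to the shorter, Cyp2c38. Merged sites can join peaks through another list, so counts of sites and of overlapping peaks can differ by 1. Exact Clopper-Pearson intervals were given for shares, conditional binomial intervals for count ratios and order-statistic intervals for medians. Code was tested on simulated data, and bedtools 2.31.1 gave the same overlap for all 246817 calls. The work used Python 3.11.15, pandas 2.3.3, numpy 2.4.6 and scipy 1.17.1.

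Members, gene lists and motifs were chosen with earlier results of these data known. Named genes are the strongest of each subfamily, the top 10 sites of each control list, the top 5 of each comparison and 15 fixed genes. CAAAGT was added after the data were seen. A difference of 2-fold was called. Alternatives were an overlap of 100 bp, a distance of 10 kb, 8-fold over input, lists of equal length, rescaled counts and, added after seeing the data, a tolerance of 500 bp.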

Additional observations from a re-analysis of the deposited data

How the results depend on the processing

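Of 106 recomputed shares and medians (20 results), 97 stayed within the interval of the reported value and 9 moved outside it. A change of direction was looked for in the medians only, and 0 of them changed sign. With 8-fold over input required, the share of member peaks found in 1 list only was 41.6% for control dexamethasone against vehicle (42.8% of all peaks under that setting), 16.1% for dKO vehicle against dexamethasone (27.7% of all) and 44.2% for control against dKO under vehicle (34.9% of all). The last 2 thereby changed sides relative to all peaks. With lists cut to equal length, the dKO share without a control peak under dexamethasone was 19.8% (26.6% of all), and 69.2% of vehicle GR peaks coincided with NCOR1 (48.4% of all). With peaks within 500 bp counted as 1 site, an alternative chosen after seeing the data, the former was 6.31% (11.1% of all). An overlap of 100 bp put the dKO NCOR1 peaks without a control peak at 64.7% (59.7% of all), above all peaks where it had been below. Rescaled to all shared peaks, the medians were -0.05 for dKO against control GR under dexamethasone and -0.06 for NCOR1 with dexamethasone. The distance of 10 kb moved none of the 20. The cause was not tested. Shares over all peaks under each setting were added after seeing the data. No paired analysis was possible because the lists pool the replicates, and for the same reason no replicate could be left out. Depth ran from 17.5 to 36.9 M tags, and its effect on which peaks were called was not tested. Of the 52 control peaks found under dexamethasone only, 36 (69.2%) were under 8-fold over their surroundings, against 68.3% of all such peaks.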
